A study of Rattus norvegicus with 9 samples.

Results

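The 10 antioxidant enzyme genes described here were Sod1, Sod2, Sod3, Cat, Gpx1, Gpx3, Gpx4, Prdx6, Nqo1 and Gclc. They were chosen by name, as enzymes that remove superoxide and peroxides, detoxify quinones or make glutathione, and were found in the table of counts by their NCBI Gene IDs. All 10 had a row among the 17465 genes of the table, and all 10 passed the filter on low counts.

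Superoxide dismutases turn superoxide into hydrogen peroxide, which catalase, glutathione peroxidases and peroxiredoxins then reduce to water. Glutathione peroxidases draw on glutathione, whose synthesis is limited by the enzyme encoded by Gclc, and many genes of the system answer to the transcription factor NRF2 (gene Nfe2l2), which KEAP1 holds back. In rat lung the activity of several of these enzymes is known to rise late in gestation, as the lung is made ready for breathing air, and red blood cells are also rich in catalase, glutathione peroxidase 1 and peroxiredoxin 2.

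RNA of 9 fetal Sprague-Dawley rat lungs was sequenced after depletion of ribosomal RNA. The 3 control lungs and the 3 hypoplastic lungs carried no treatment, and another 3 hypoplastic lungs had received AFSC-EVs, extracellular vesicles released by amniotic fluid stem cells (called treated lungs here). Hypoplastic lungs are underdeveloped, here after oligohydramnios, a shortage of amniotic fluid. The sources used here give no fetal age, no way in which the shortage was brought about, no vesicle dose, route or timing and no litter. No label says that the lungs of a group are separate animals, so p-values measure the spread between these libraries. Library totals ran from 56922779 to 88243188 estimated counts. Levels are given as CPM (counts scaled to a common library size with TMM factors), and they are compared between libraries for 1 gene at a time, because transcript length was not available.

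Summed marker levels set some libraries apart. Red cell markers, 11 genes with a row of 12 listed and none at 0 throughout, summed to 3963 to 12600 CPM in control, 3831 to 7496 CPM in hypoplastic and 4427 to 7665 CPM in treated lungs, with control library 2 the highest. Markers of the NF-kB and cytokine response, 11 genes of 12, summed to 822.1 CPM in hypoplastic library 2 and to 165.3 to 314.7 CPM in the other libraries. The 12 neutrophil markers summed to 19.16 to 28.3 CPM in control, 109.8 to 190.3 CPM in hypoplastic and 46.23 to 106.2 CPM in treated lungs. Of the 190.3 CPM, in hypoplastic library 2, the marker Lcn2 alone held 131.2 CPM. The 8 cardiac muscle markers summed to 256.1 and 122.5 CPM in hypoplastic libraries 1 and 2 and to 19.38 CPM or less elsewhere. The 9 alveolar type II markers, surfactant proteins among them, summed to 2452 CPM or more in every library. In whole lung, fewer cells of a type and less RNA per cell cannot be told apart.

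None of the 10 genes was called at an adjusted p under 0.05 by edgeR's quasi-likelihood test in any comparison, where edgeR called 0.00771% of all 12966 tested genes for hypoplastic against control and 0% for each comparison of the treated lungs. DESeq2 called none of the 10 either, where it called 1.56% of all genes for hypoplastic against control, 0.132% for treated against hypoplastic and 0.108% for treated against control. At an unadjusted p under 0.05 there was 1 of the 10 in hypoplastic against control (Sod2), where 12.4% of all tested genes lay below that value. For treated against hypoplastic there were 0 of 10 (5.56% of all tested genes), and for treated against control 0 of 10 (4.17%). The median log2 fold change of the 10 was -0.11 for hypoplastic against control, where that of all tested genes was 0.013. It was 0.0068 for treated against hypoplastic (-0.010 over all tested genes) and -0.098 for treated against control (0.0028 over all tested genes). Each pair of these comparisons shares 1 group of libraries.

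**Figure D1:**
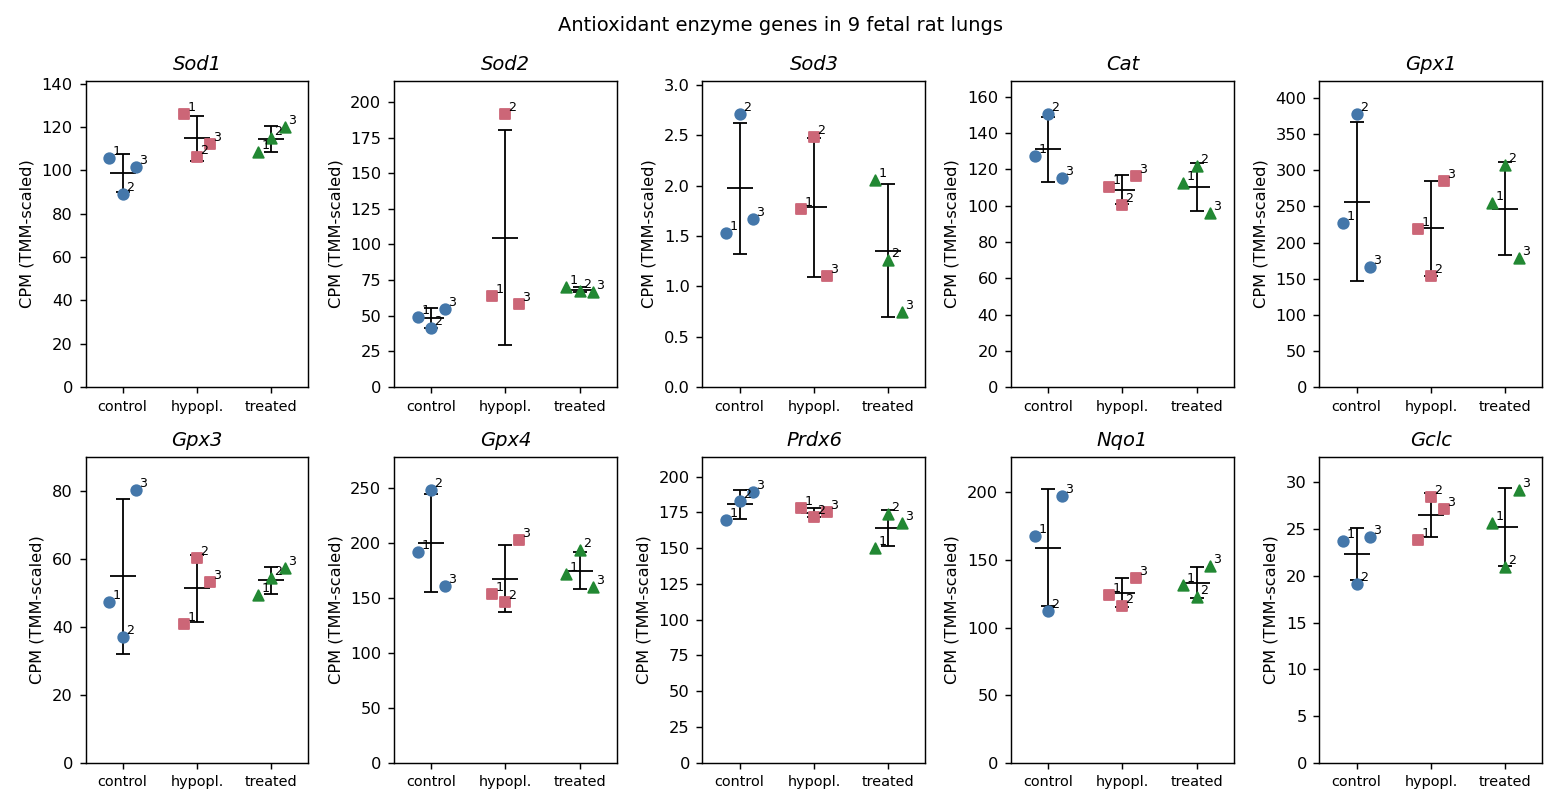
Level of each of the 10 genes in CPM (vertical axes from 0, a scale for each gene) in the control, hypoplastic and treated lungs. Each point is a library with its replicate number, and bars give the mean and SD of 3 libraries; the Sod2 value of hypoplastic library 2, 191.6 CPM, stands apart, and the treated Sod2 values of 66.93 to 70.1 CPM all lie above the control values.

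The 95% intervals of the differences show what sizes of change these libraries leave room for. All come from 1 fit of the 9 libraries, so the spread of the group outside a comparison also enters its intervals. In each of the 3 comparisons the interval stayed inside a 2-fold change in either direction (a log2 fold change between -1 and 1) for 8 of the 10 genes. The exceptions were Sod2 and Sod3 each time. The narrowest was that of Prdx6, and the interval of Sod2 in hypoplastic against control was the only one that left out 0, before adjustment for the number of genes.

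**Figure D2:**
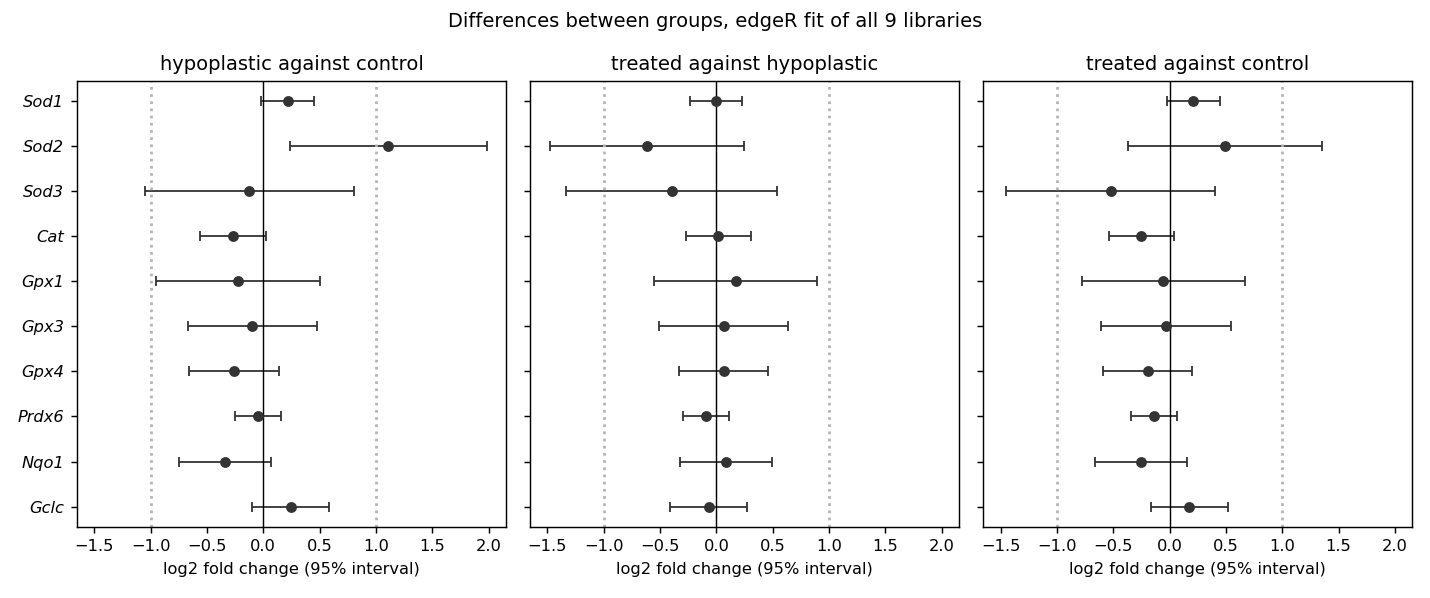
Log2 fold change of each gene (points) with its approximate 95% interval from the edgeR fit (bars) in the 3 comparisons, with dotted lines at a 2-fold change. The intervals of Sod2 and Sod3 cross the dotted lines and those of the other 8 genes do not.

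Of the superoxide dismutases, Sod2 (Gene ID 24787) encodes the manganese enzyme of mitochondria, a classic target of NF-kB in inflamed tissue. Its level was 49.01, 41.45 and 54.81 CPM in control libraries 1 to 3, 64.22, 191.6 and 58.04 CPM in the hypoplastic libraries and 70.1, 67.44 and 66.93 CPM in the treated libraries. Every hypoplastic and every treated library lay above every control library, and hypoplastic library 2 stood far above the other hypoplastic libraries. The means were 48.42 CPM ± 6.70 (SD, n = 3) in control, 104.6 CPM ± 75.4 (SD, n = 3) in hypoplastic and 68.15 CPM ± 1.70 (SD, n = 3) in treated lungs.

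The SEs come from 1 fit of all 9 libraries, so the spread of the hypoplastic libraries also enters that of treated against control. By edgeR the log2 fold change of Sod2 was 1.11 (SE 0.389, adjusted p 0.341) in hypoplastic against control, 0.49 (SE 0.386, adjusted p 0.998) in treated against control and -0.62 (SE 0.385, adjusted p 0.921) in treated against hypoplastic. The size of the first of these rested on 1 library. Without hypoplastic replicate 2 it was 0.34 (unadjusted edgeR p 0.0314, adjusted p 0.537), and the difference of treated from hypoplastic lungs turned to 0.16 (edgeR adjusted p 0.932). Without control replicate 2 the difference of hypoplastic from control lungs was 1.01 (unadjusted edgeR p 0.058, adjusted p 0.781). In hypoplastic library 2 the NF-kB and cytokine markers were also highest, with Cxcl1, a neutrophil chemokine, at 77.92 CPM against 5.412 to 19.3 CPM in the other 8, and Nos2, the inducible nitric oxide synthase, at 83.69 CPM against 2.265 to 10.97 CPM.

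Over the 9 libraries log2 Sod2 followed the log2 sum of the NF-kB and cytokine markers with a Pearson r of 0.974 (two-sided exact permutation p 0.00114, Benjamini-Hochberg adjusted 0.00757) and a Spearman rho of 0.767 (exact p 0.0214, adjusted 0.107). The adjustment covers 20 relations, those of the 10 genes with this list and with the red cell list. It does not cover the choice of these lists among 11 marker lists. Genes and lists were chosen with earlier results of these data known, so the p-values do not test relations fixed in advance. Libraries were permuted across groups, so a group difference shared by gene and markers counts toward a relation. Without control library 2 and hypoplastic library 2, the libraries farthest from the median of the marker sum, r was 0.561 (n = 7), so the relation rests largely on those libraries. Of 12799 tested genes outside the list and above 0 in every library, none followed the marker sum more closely than Sod2 by absolute r. The part of inflammatory cells in the level of Sod2 was not tested.

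The 250 bases before the start of Sod2 are shown because its groups did not overlap against control, with the core of the antioxidant response element, the NRF2 site (TGACNNNGC), and the GC box (GGGCGG) in capitals. Both strands were searched, a match on the opposite strand is capitalised as it reads on the gene's strand, and the sequence is from RefSeq, build GRCr8, 5′ to 3′.
Sod2, chr1:50050169-50050418, minus strand: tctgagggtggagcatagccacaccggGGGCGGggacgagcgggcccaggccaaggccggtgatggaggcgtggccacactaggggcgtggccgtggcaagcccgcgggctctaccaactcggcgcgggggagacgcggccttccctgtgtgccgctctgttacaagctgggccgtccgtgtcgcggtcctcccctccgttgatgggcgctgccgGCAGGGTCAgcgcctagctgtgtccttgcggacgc
The antioxidant response element core began 35 bases before the start on the opposite strand, and 10.2% of 27457 rat promoters of this length hold it. The windows found for the other members had no match to it, those of the known NRF2 targets Nqo1 and Gclc included. The GC box began 223 bases before the start, and 32.4% of the promoters hold one. The NF-kB consensus, which 6.41% of the promoters hold, had no match in this window, and among the members it matched in the window of Gpx1 and in 1 of the 3 windows of Gpx4, not the one printed here.

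Sod1 (Gene ID 24786) encodes the copper and zinc enzyme of the cytosol. It was at 105.7, 89.11 and 101.6 CPM in control, 126.1, 106.1 and 112.2 CPM in hypoplastic and 108.4, 114.8 and 120.2 CPM in treated libraries. As with Sod2, no control library reached the lowest hypoplastic or treated library, though control library 1 and hypoplastic library 2 were 105.7 and 106.1 CPM. By edgeR Sod1 had a log2 fold change of 0.22 (SE 0.104, adjusted p 0.429) in hypoplastic against control, 0.21 (SE 0.104, adjusted p 0.998) in treated against control and -0.0043 (95% interval -0.238 to 0.229) in treated against hypoplastic.

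The 250 bases before the start of Sod1 are shown for the same reason as those of Sod2, from the same source, with the GC box and the CCAAT box (CCAAT) in capitals.
Sod1, chr11:42942573-42942822, plus strand: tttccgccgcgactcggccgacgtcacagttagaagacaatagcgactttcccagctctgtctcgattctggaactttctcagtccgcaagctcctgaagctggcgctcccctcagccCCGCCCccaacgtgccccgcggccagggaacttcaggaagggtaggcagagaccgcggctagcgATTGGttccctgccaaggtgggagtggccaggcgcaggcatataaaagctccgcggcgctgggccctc
The GC box began 132 and the CCAAT box 68 bases before the start, both on the opposite strand, and the antioxidant response element core and the NF-kB consensus had no match.

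Sod1 and Sod2 were thus 2 of 10 members whose hypoplastic libraries did not overlap the control libraries, where 16.7% of all tested genes did not overlap (7.68% higher and 9.05% lower), a share near that of the members. In treated against control they were again 2 of 10, against 9.39% of all tested genes (4.37% higher and 5.02% lower). Both groups of hypoplastic lungs lay on the same side of every control library in 3.94% of all tested genes. Between treated and hypoplastic lungs every member overlapped, where 9.81% of all tested genes did not (5.07% higher and 4.74% lower).

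Sod3 (Gene ID 25352) encodes the secreted dismutase of the matrix and vessel wall. It was low, at 51 to 156 counts in a library. The levels were 1.532, 2.711 and 1.668 CPM in control, 1.769, 2.482 and 1.104 CPM in hypoplastic and 2.054, 1.256 and 0.7488 CPM in treated libraries. The groups overlapped throughout, and the log2 fold changes had wide 95% intervals, at -0.13 (-1.05 to 0.801) in hypoplastic against control, -0.40 (-1.34 to 0.541) in treated against hypoplastic and -0.52 (-1.46 to 0.407) in treated against control.

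Catalase (Cat, Gene ID 24248), which breaks down hydrogen peroxide in peroxisomes, and the selenium enzymes glutathione peroxidase 1 (Gpx1, Gene ID 24404) and glutathione peroxidase 4 (Gpx4, Gene ID 29328), which reduce soluble peroxides and lipid peroxides in membranes, varied together from library to library. Across libraries Pearson's r of log2 CPM was 0.893 between Gpx1 and Gpx4, 0.886 between Cat and Gpx4 and 0.791 between Cat and Gpx1 (n = 9 libraries, given as a description). These were the highest 3 of the 45 pairs among the 10 genes.

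Gpx1 was at 226.6, 378.1 and 165.7 CPM in control, 219.1, 154.0 and 285.5 CPM in hypoplastic and 254.6, 307.5 and 178.6 CPM in treated libraries. Gpx4 was at 191.9, 249.0 and 160.7 CPM in control, 153.8, 146.3 and 202.7 CPM in hypoplastic and 171.6, 193.6 and 160.1 CPM in treated libraries. Cat was at 127.6, 150.6 and 115.0 CPM in control, 110.1, 100.2 and 116.1 CPM in hypoplastic and 112.6, 122.0 and 95.94 CPM in treated libraries. All 3 genes had their highest value in control library 2, and within each group the 3 genes ordered the libraries alike.

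The red cell markers ordered the libraries of every group in that same way. Their summed level was 6928, 12600 and 3963 CPM in control libraries 1 to 3, 4619, 3831 and 7496 CPM in hypoplastic and 5146, 7665 and 4427 CPM in treated libraries, with haemoglobin (Hbb) and Alas2, the enzyme that starts haem synthesis in red cell precursors, among the markers. Over the 9 libraries r with the log2 marker sum was 0.981 for Gpx4 (two-sided exact permutation p 0.000116, adjusted 0.00231), with a rho of 0.917 (exact p 0.00131, adjusted 0.0131). For Gpx1 r was 0.929 (exact permutation p 0.00027, adjusted 0.0027), with a rho of 0.983 (exact p 4.96e-05, adjusted 0.000992).

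For Cat r was 0.875 (exact permutation p 0.00193, adjusted 0.00966), with a rho of 0.817 (exact p 0.0108, adjusted 0.0718). Without control library 2 and treated library 2, the farthest from the median of the marker sum, r was 0.958 for Gpx4, 0.852 for Gpx1 and 0.674 for Cat (n = 7). Of the 12799 tested genes outside the list, 3 followed the marker sum at least as closely as Gpx4, itself included, 30 as closely as Gpx1 and 134 as closely as Cat. For the other 7 members r lay between -0.733 (Gclc) and 0.163 (Prdx6), each with an adjusted p above 0.05. As with Sod2, these p-values do not test relations fixed in advance. The part of red cells in the levels of these genes was not tested.

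**Figure D3:**
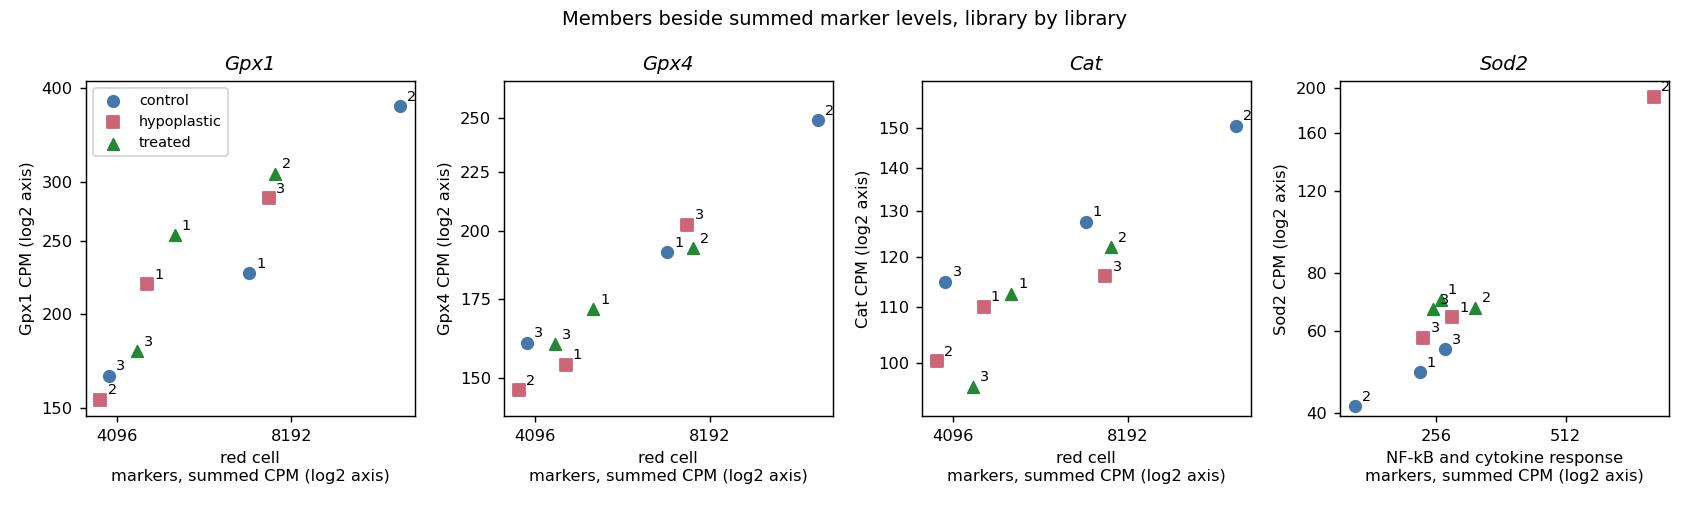
Gpx1, Gpx4 and Cat against the summed red cell markers, and Sod2 against the summed NF-kB and cytokine markers, each in CPM on log2 axes, 1 point per library with its replicate number. Gpx1, Gpx4 and Cat were highest in control library 2, where the red cell markers summed to 12600 CPM, and the Sod2 panel is set apart by hypoplastic library 2.

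Between the groups these 3 genes overlapped. The log2 fold change in hypoplastic against control was -0.27 (SE 0.130, edgeR adjusted p 0.430) for Cat, -0.26 (SE 0.178, adjusted p 0.572) for Gpx4 and -0.23 (SE 0.324, adjusted p 0.808) for Gpx1. Between treated and hypoplastic lungs the differences were 0.018, 0.063 and 0.17 (edgeR adjusted p at least 0.964), and each took the other sign, -0.038, -0.025 and -0.031, without hypoplastic replicate 2. In treated against control they were -0.25 for Cat, -0.20 for Gpx4 and -0.056 for Gpx1, each with an adjusted p of 0.998. Without control replicate 2 the first comparison gave -0.16 for Cat and -0.074 for Gpx4, and that of Gpx1 turned to 0.16, as its difference of treated from control lungs turned to 0.33.

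The promoters of these 3 genes are shown because their levels moved together, with the GATA core (GATAA, the site of the red cell factor GATA1 and its relatives), the GC box (GGGCGG) and the CCAAT box (CCAAT) in capitals, on either strand. For Gpx4 the most upstream of 3 annotated starts is shown. The sequences are from RefSeq, build GRCr8, 250 bases before the start, 5′ to 3′.
Gpx1, chr8:117905212-117905461, plus strand: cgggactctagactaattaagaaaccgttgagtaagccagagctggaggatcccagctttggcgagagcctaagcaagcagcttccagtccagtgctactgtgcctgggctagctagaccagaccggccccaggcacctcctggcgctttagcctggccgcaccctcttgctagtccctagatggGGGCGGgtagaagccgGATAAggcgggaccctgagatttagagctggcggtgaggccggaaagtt
Gpx4, chr7:10303630-10303879, minus strand: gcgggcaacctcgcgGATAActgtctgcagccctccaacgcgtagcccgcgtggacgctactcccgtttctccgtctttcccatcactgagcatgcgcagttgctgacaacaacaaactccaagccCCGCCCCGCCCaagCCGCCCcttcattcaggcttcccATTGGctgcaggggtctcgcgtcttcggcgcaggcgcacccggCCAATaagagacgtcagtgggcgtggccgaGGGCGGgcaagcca
Cat, chr3:110329527-110329776, minus strand: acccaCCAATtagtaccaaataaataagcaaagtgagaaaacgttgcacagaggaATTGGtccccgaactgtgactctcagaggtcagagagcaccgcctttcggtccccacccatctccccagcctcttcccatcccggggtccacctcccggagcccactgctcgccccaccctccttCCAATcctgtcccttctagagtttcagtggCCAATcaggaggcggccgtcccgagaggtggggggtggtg
A GATA core began 49 bases before the start of Gpx1 and 235 bases before the Gpx4 start shown, while the windows of the other 2 Gpx4 starts and that of Cat had none, where 23.2% of 27457 rat promoters hold one. The Gpx4 window shown had 4 GC boxes, of which those at 124 and 119 bases before the start overlap, Gpx1 had 1 and Cat 0. Cat had 4 CCAAT boxes and the Gpx4 window shown had 2, where 34.3% of the promoters hold at least 1. A window was found for 8 of the 10 members, all except Sod3 and Prdx6. A match in these windows is a description of the letters and was not tied to binding.

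Glutathione peroxidase 3 (Gpx3, Gene ID 64317) is the secreted enzyme of plasma. Unlike Gpx1 and Gpx4 it was lowest in control library 2, with 47.23, 36.9 and 80.4 CPM in control, 40.76, 60.12 and 53.14 CPM in hypoplastic and 49.43, 54.49 and 57.21 CPM in treated libraries. The control libraries spanned the values of both other groups. Its log2 fold change was -0.096 (95% interval -0.671 to 0.479) in hypoplastic against control and -0.031 in treated against control, and it took the other sign, 0.29 and 0.35, without control replicate 3.

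Peroxiredoxin 6 (Prdx6, Gene ID 94167) reduces oxidised phospholipids and also acts on surfactant lipid in the lung. It was the steadiest of the 10 genes, with a coefficient of variation of 6.37% over the 9 libraries and a highest value 1.26 times the lowest. The levels were 169.4, 183.0 and 189.6 CPM in control, 177.8, 171.5 and 175.3 CPM in hypoplastic and 150.1, 174.2 and 167.7 CPM in treated libraries. Its log2 fold change was -0.047 (95% interval -0.253 to 0.159) in hypoplastic against control, -0.093 (-0.299 to 0.113) in treated against hypoplastic and -0.14 (-0.346 to 0.0661) in treated against control. The alveolar type II markers summed to 3392 to 6181 CPM in control and 2452 to 2928 CPM in hypoplastic lungs, whereas the Prdx6 values of these groups overlapped.

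Nqo1 (Gene ID 24314) encodes a quinone reductase and is a standard readout of NRF2 activity. It was at 167.6, 112.6 and 197.3 CPM in control, 124.1, 115.9 and 137.0 CPM in hypoplastic and 131.3, 122.8 and 145.8 CPM in treated libraries. Control libraries 1 and 3 lay above every library of the other groups, and control library 2 below all of them. The log2 fold change was -0.34 (SE 0.181, edgeR adjusted p 0.470) in hypoplastic against control and -0.26 (SE 0.181, adjusted p 0.998) in treated against control. These were -0.54 and -0.45 without control replicate 2 and -0.16 and -0.071 without control replicate 3.

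Gclc (Gene ID 25283) encodes the catalytic subunit of glutamate-cysteine ligase. It was at 23.69, 19.12 and 24.19 CPM in control, 23.88, 28.4 and 27.17 CPM in hypoplastic and 25.61, 20.94 and 29.23 CPM in treated libraries, and the groups overlapped. Its log2 fold change was 0.25 (SE 0.153, edgeR adjusted p 0.531) in hypoplastic against control and -0.068 (95% interval -0.410 to 0.273) in treated against hypoplastic. Gclc and Cat ran opposite to each other, with an r of -0.889 over the 9 libraries, the lowest of the 45 pairs. Nqo1 and Gclc, both known NRF2 targets, thus had differences of opposite sign from control, neither past the threshold.

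Among 9571 tested genes with a known name that averaged 5 CPM or more, the genes most like each of 3 members were found by Pearson's r of log2 CPM over the 9 libraries, as a description. Sod2 was closest to Cxcl16, a chemokine, at an r of 0.977, and then to Fndc1 (0.977) and Gfpt2 (0.976). Cxcl16 was at 80.5 CPM in hypoplastic library 2 and at 19.55 to 29.59 CPM elsewhere. Cat was closest to Mbnl3 (0.979), Alas2 (0.977) and Wdr13 (0.976), and Sod1 to Arrb2 (0.917), Kat8 (0.911) and Tcp1 (0.908). Alas2 was highest in control library 2, at 1496 CPM, and lowest in treated library 3, at 419.1 CPM, the same libraries that held the highest and the lowest Cat value.

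The wider antioxidant system was followed with a list of 105 genes in 12 groups, the 10 members included, of which 100 were tested. edgeR called none of the 100 in any comparison. In hypoplastic against control, 18 of the 100 had an unadjusted p under 0.05 (12 higher and 6 lower), where 6.67% of all tested genes were higher and 5.69% lower at that level, and the median log2 fold change was 0.075. For treated against hypoplastic there was 1, lower (3.56% of all tested genes), with a median of -0.055. For treated against control there were 4 (3 higher, where 1.67% of all tested genes were, and 1 lower, against 2.5%), with a median of 0.013. Without hypoplastic replicate 2, left out here after its values were seen, 8 of the list were higher and 2 lower at that level in hypoplastic against control (4.36% and 4.63% of all tested genes), and the medians were 0.068 and, for treated against hypoplastic, -0.00021. In treated against control 7 were then higher and 1 lower (2.19% and 2.58% of all tested genes), with a median of 0.014. The list was not counted without control replicate 2. Over all tested genes, 1603 had an unadjusted edgeR p under 0.05 in hypoplastic against control. Those were 853 without control replicate 2 and 1179 without hypoplastic replicate 2. DESeq2 called 2 of the 100 in hypoplastic against control, Slc7a11 and Mt2A, where it called 1.56% of all genes, a share near that of the list. It called none of the list in the other comparisons (0.132% and 0.108% of all genes).

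**Figure D4:**
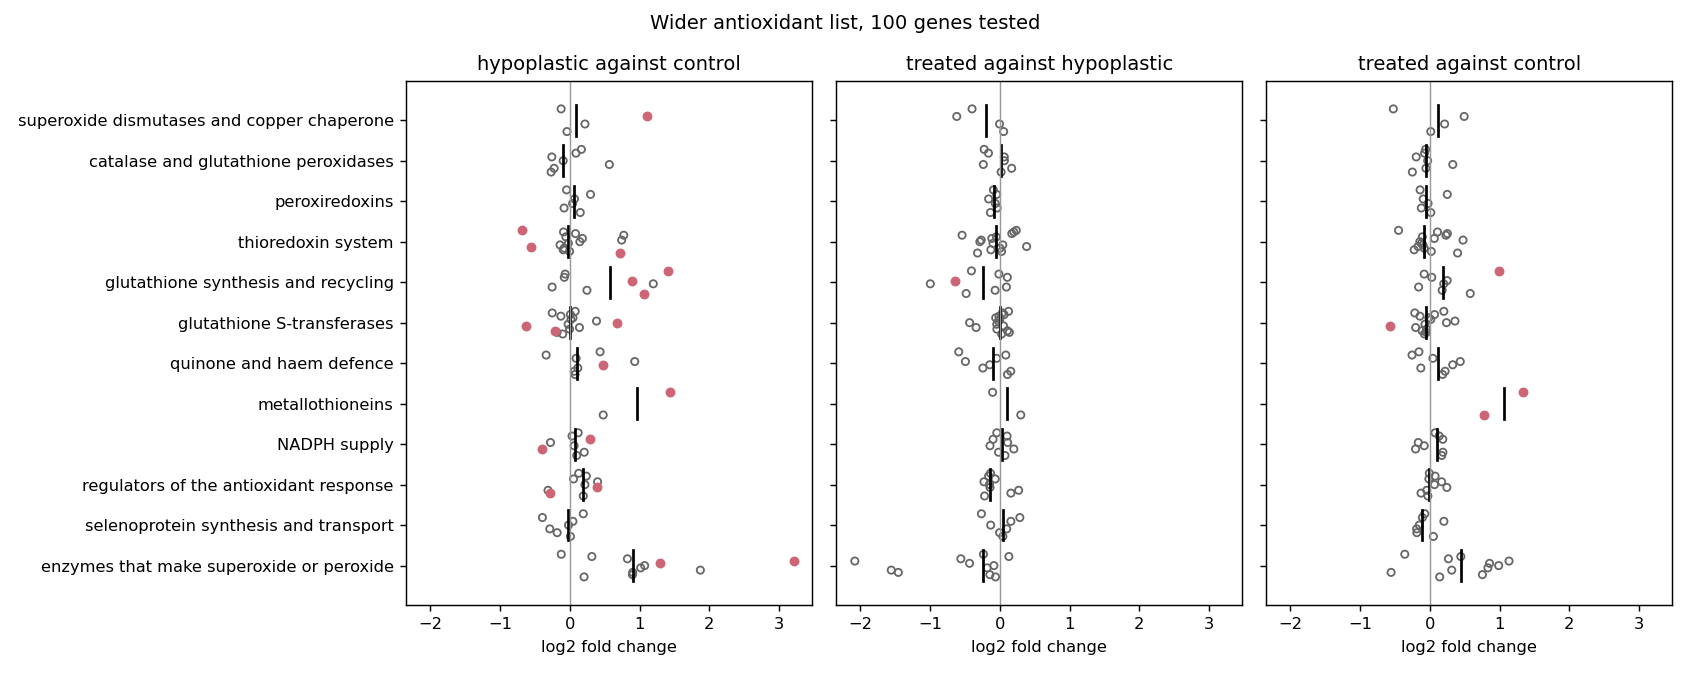
Log2 fold change of the 100 tested genes of the wider antioxidant list in its 12 groups (open circles, and filled circles at an unadjusted edgeR p under 0.05; black lines mark the group median) in the 3 comparisons. In hypoplastic against control the enzymes that make superoxide or peroxide have a median of 0.90, which was 0.31 without hypoplastic replicate 2, and the thioredoxin, peroxiredoxin and glutathione S-transferase groups have medians between -0.022 and 0.053.

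Slc7a11, the cystine carrier that feeds glutathione synthesis, was at 0.812, 1.302 and 0.678 CPM in control, 2.47, 2.008 and 2.823 CPM in hypoplastic and 1.619, 1.232 and 2.687 CPM in treated libraries. Every hypoplastic library was above every control library. The log2 fold change was 1.40 (SE 0.361, edgeR adjusted p 0.317, DESeq2 adjusted p 0.0368). Ggt5, an enzyme of glutathione breakdown, was at 1.142 to 2.926 CPM in control, 3.886 to 4.194 CPM in hypoplastic and 2.463 to 2.712 CPM in treated libraries, and was the 1 gene of the list at an unadjusted p under 0.05 in treated against hypoplastic (log2 fold change -0.65, SE 0.282, edgeR adjusted p 0.895). The group of glutathione synthesis and recycling had 5 of 8 genes higher in hypoplastic against control, with a median of 0.57, and 3 of them at an unadjusted p under 0.05, where 6.67% of all tested genes were higher at that level. The 3 were Slc7a11, Ggt5 and Chac1, which degrades glutathione and whose libraries overlapped the control libraries (2.714, 6.858 and 2.353 CPM in hypoplastic, 1.823, 1.213 and 2.617 CPM in control). Without hypoplastic replicate 2 the median was 0.30, with 2 genes at that level.

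Metallothioneins bind zinc and copper and also quench radicals. Mt2A was at 1.445 to 3.018 CPM in control, 3.767 to 9.112 CPM in hypoplastic and 3.759 to 6.386 CPM in treated libraries, with log2 fold changes from control of 1.44 (edgeR adjusted p 0.317, DESeq2 adjusted p 0.0286) and 1.34 (edgeR adjusted p 0.998). Mt1 was at 27.39, 36.49 and 16.98 CPM in control, 37.1, 37.56 and 37.9 CPM in hypoplastic and 53.51, 40.21 and 44.87 CPM in treated libraries. All treated libraries lay above all hypoplastic libraries and those above all control libraries for Mt1, without a call (log2 fold change 0.78 in treated against control, SE 0.233, edgeR adjusted p 0.998). The remaining metallothionein listed, Mt3, was below the filter.

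Gstm2, a glutathione S-transferase, had lower values in both groups of hypoplastic lungs without a call by edgeR or DESeq2, at 96.43, 139.2 and 108.6 CPM in control, 89.32, 62.78 and 70.21 CPM in hypoplastic and 80.66, 82.73 and 67.2 CPM in treated libraries. Neither group overlapped the control libraries. The log2 fold changes were -0.63 (SE 0.171, edgeR adjusted p 0.317, DESeq2 adjusted p 0.0536) and -0.58 (SE 0.171, edgeR adjusted p 0.998). Of the 15 glutathione S-transferases 7 were higher and 8 lower in hypoplastic against control, with a median of -0.0044 (-0.062 without hypoplastic replicate 2), and several have near-identical copies whose reads the counting may have split. Idh2, a source of mitochondrial NADPH, had the next smallest p among the listed genes with lower values, at -0.41 (edgeR adjusted p 0.379).

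Among the genes that regulate the response or serve as its readout, the NRF2 gene Nfe2l2 had a log2 fold change of 0.24 (edgeR adjusted p 0.687) and its inhibitor Keap1 one of -0.31 (adjusted p 0.519) in hypoplastic against control. Beside Slc7a11, given above, the NRF2 targets named here went both ways, with 0.93 for Hmox1 (haem oxygenase), 0.74 for Srxn1 (sulfiredoxin), 0.081 for Txnrd1 (thioredoxin reductase), -0.080 for Gsr (glutathione reductase) and -0.26 for Gclm (the modifier subunit beside Gclc), and these 5 had an edgeR adjusted p of 0.435 or higher. Hmox1 was at 31.73 CPM in control library 2, 296.7 CPM in hypoplastic library 2 and 81.69 to 161.9 CPM in the other 7. Gclm was highest in control library 2, at 93.69 CPM, and ordered the libraries within each group as the red cell markers did. Treated less hypoplastic, Hmox1 and Srxn1 were at -0.49 and -0.27, Txnrd1 at 0.17, Gsr at 0.11, Gclm at 0.094, Nfe2l2 at -0.16 and Keap1 at 0.27 (edgeR adjusted p at least 0.935). Treated less control, the values of Nfe2l2 and Keap1 were 0.075 and -0.044.

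The other peroxiredoxins, which reduce peroxides with thioredoxin, were not called in any comparison. In hypoplastic against control the log2 fold changes were 0.15 for Prdx1, -0.083 for Prdx2, 0.039 for Prdx3, 0.066 for Prdx4 and 0.30 for Prdx5, and the hypoplastic libraries overlapped the control libraries for each. Prdx2, an abundant red cell protein, was at 776.5 CPM in control library 2, 741.5 CPM in hypoplastic library 3 and 681.6 CPM in treated library 2, the highest of each group, and at 464.6 to 626.7 CPM in the other 6. All 6 peroxiredoxins, Prdx6 included, had values below 0 in treated against hypoplastic, from -0.16 to -0.039, with edgeR adjusted p of at least 0.940, and 5 of 6 did without hypoplastic replicate 2. In the thioredoxin system the median in hypoplastic against control was -0.022 over 15 genes (0.00016 without hypoplastic replicate 2). The smallest p in this group was that of Glrx, a glutaredoxin, at 0.72 (SE 0.215, edgeR adjusted p 0.323, DESeq2 adjusted p 0.0821), with 9.79 to 16.56 CPM in hypoplastic above 6.171 to 8.549 CPM in control libraries. Txnip, the inhibitor of thioredoxin, was at 0.77 (edgeR adjusted p 0.529), with Txnrd3 at -0.68 and Msrb2 at -0.55, each not called (edgeR adjusted p 0.390), and Txnrd3 was at -0.45 in treated against control. Msrb2 and Sepsecs, of selenocysteine synthesis, had the smallest p among the genes higher in treated than in hypoplastic lungs, at 0.38 and 0.29 (edgeR adjusted p 0.921).

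The enzymes that make superoxide, peroxide or nitric oxide had 10 of 11 tested genes higher in hypoplastic against control, with a median of 0.90, and 10 of 11 lower in treated against hypoplastic, with a median of -0.24. These comparisons share the hypoplastic libraries, and both values rested on library 2 of that group. Without it the first median was 0.31, with 10 of 11 genes still above 0, and the second turned to 0.087, with 9 of 11 genes above 0. Treated against control, which does not compare that library, had 9 of 11 genes higher, with a median of 0.44. That median was 0.45 with hypoplastic library 2 left out of the fit. The medians were not computed without control library 2, which both comparisons with control share. Among the control libraries it was the lowest for Cybb and Ncf1 and the highest for Noxo1. Nos2 had the largest values, 3.22 (SE 1.07, edgeR adjusted p 0.330) and -2.08 (SE 1.01, adjusted p 0.901), with 83.69 CPM in hypoplastic library 2 and 4.804 and 3.801 CPM in the other hypoplastic libraries. The group holds phagocyte oxidase genes such as Cybb, at 9.668, 28.23 and 12.92 CPM in hypoplastic and 10.66, 3.799 and 12.71 CPM in control libraries. In treated libraries Cybb was at 13.22, 15.37 and 17.43 CPM, each above every control library. The macrophage markers, 10 genes with none at 0 throughout, summed to 298.1, 646 and 429.4 CPM in hypoplastic and 360.1, 250.2 and 451.2 CPM in control libraries, so only the sum of hypoplastic library 2 lay above the control range. All 9 tested genes of that list had a log2 fold change above 0, with a median of 0.93. An unadjusted edgeR p under 0.05 was found for 1 of these 9, where 12.4% of all tested genes had one. Of the neutrophil markers, 8 of 11 tested genes had such a p, all higher. The part of these cells in the result was not tested. NADPH supply had 6 of 8 genes higher and the selenoprotein group 3 of 7 in hypoplastic against control, with medians of 0.079 and -0.020, the latter -0.15 without hypoplastic replicate 2.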

How the data were processed

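The authors deposited 1 table of estimated counts for 17465 genes and 9 libraries. The name given to the table points to featureCounts, no source used here gives the counter's version, settings or annotation, and the submitters' processing notes name DESeq2 and build rn7 without a role. How reads of near-identical genes were shared is not known. Symbols came from the RefSeq table of GRCr8 (99.1% of IDs matched). Counts were rounded and 12966 genes kept by filterByExpr. The test was edgeR 4.0.16's quasi-likelihood test (R 4.3.3, TMM) with all 9 libraries in 1 fit, checked on simulated data, with Benjamini-Hochberg adjustment over all genes tested and a threshold of 0.05. SEs are the change divided by the square root of F, and 95% intervals are approximate. limma 3.58.1 and DESeq2 1.42.0 served as alternatives. Ribosomal and 7SL RNA held 14.1 to 19.9% of the counts.

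The 10 members and all lists were chosen with earlier results of these data known. All members are named, with the 2 other list genes of smallest p in each direction and comparison, any called list gene, Nfe2l2, Keap1, 6 NRF2 targets and Prdx1 to Prdx5, and for likeness the 3 closest genes of the 3 members with the smallest p. Single marker genes, Glrx, Txnip, Chac1 and Cybb were picked after their values were seen.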

Additional observations from a re-analysis of the deposited data

How the results depend on the processing

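No member was called under any of the 18 alternatives in any comparison. Over all genes, edgeR's count in hypoplastic against control was 1, and 202 with DESeq2, 4 with only the 6 libraries compared and 0 to 45 with 1 library left out (45 without hypoplastic replicate 3). In treated against hypoplastic it was 0, and 17 with DESeq2 and 0 to 44 with 1 library left out (44 without hypoplastic replicate 3). In treated against control it was 0, and 14 with DESeq2 and 0 to 1. With the replicate block 2, 0 and 0 genes were called, and no member. The labels do not say that replicate numbers pair the lungs. Between groups, the deviations of same-numbered libraries correlated at -0.282 to 0.227 (median -0.00235), above 0.1 in 3 of 9 pairs. Those of differently numbered libraries correlated at -0.439 to 0.389 (median 0.00245), above 0.1 in 7 of 18 pairs. Of the wider list DESeq2 called 2 genes, in hypoplastic against control, where it called 1.56% of all genes, and all other alternatives called 0.

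Over 30 member differences and 18 alternatives, 514 values kept their sign and 26, in 12 of the 30, reversed. For Sod1 in treated against hypoplastic the log2 change was 0.03957 with library totals alone, 0.002068 with only the 6 libraries compared and 3.696e-05 with the replicate block, and for Gpx3 in treated against control 0.01347 with the replicate block and 0.03807 with limma voom. With 1 library left out, hypoplastic against control ran from -0.4331 to 0.1622 for Sod3, -0.4617 to 0.1617 for Gpx1 and -0.3155 to 0.2861 for Gpx3. Treated against hypoplastic ran from -0.05755 to 0.06903 for Sod1, -0.9063 to 0.1574 for Sod2, -0.06008 to 0.1095 for Cat, -0.03079 to 0.406 for Gpx1, -0.07593 to 0.1947 for Gpx3, -0.02502 to 0.2246 for Gpx4 and -0.185 to 0.0519 for Gclc. Treated against control ran from -0.2909 to 0.3323 for Gpx1 and -0.2491 to 0.3527 for Gpx3. The cause was not tested. Sod3 had the fewest counts of the members, 51 to 156 in a library.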
